A study of Mus musculus with 6 samples.

Results

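The genes described here serve glutamate uptake, glutamine synthesis, water transport and glycolysis in astrocytes, the glial cells that surround synapses and blood vessels. The list named 7 genes: Slc1a2, Slc1a3, Glul, Slc1a4, Aqp4, Aqp1 and Aldoc. A gene was taken up when the platform annotation paired a probe set with its symbol and no other, and the probe set with the highest mean intensity stood for the gene. This gave 6 genes with 9 probe sets, of 8251 genes and 12422 probe sets in all. No probe set was paired with Slc1a3, which is not analysed here. Glul, Aqp4 and Aqp1 had 2 probe sets each, and both are shown. The list was chosen with earlier results of these data known, so a count over its members is a description.

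Astrocytes take up the glutamate that neurons release, mainly through the transporters GLT-1 and GLAST, encoded by Slc1a2 and Slc1a3, and turn it into glutamine with glutamine synthetase, encoded by Glul. The glutamine returns to neurons through transporters of the Slc38 family. Aquaporin-4, encoded by Aqp4, is the main water channel of astrocytic endfeet at vessels and at the surface of the cord. Loss of GLT-1 protein from the spinal cord is a known feature of amyotrophic lateral sclerosis and of its mouse models.

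Messenger RNA of mouse spinal cord was measured on 6 oligonucleotide arrays, 1 for each of 3 genotypes at 75 and 110 days of age. Nontransgenic mice had the strain label B6SJL. WT-SOD1 mice carried a transgene for wild-type superoxide dismutase 1, with a strain label built on B6SJL at 75 days and none at 110 days. G93A-SOD1 mice carried the G93A form known from familial amyotrophic lateral sclerosis, and their strain label read B6SJL-G93A-SOD1 at 75 days and B6SJL-G93A-SOD1H at 110 days. Each array held RNA prepared from 4 spinal cords, per the labels' protocols, and was put on the array once. By the submitters' account G93A-SOD1 mice had no symptoms at 75 days and partial paralysis at 110 days, and the other genotypes stayed healthy. The arrays of the other genotypes are called disease-free here, and the spread behind every comparison with G93A-SOD1 is the spread between them. No genotype and age had a second array, and the number of arrays limits the precision.

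Median intensity lay between 77.7 and 80.9 on all 6 arrays. The arrays differed in other ways. Bacterial hybridisation controls averaged 1198 on the nontransgenic 75-day array and 1590 on the WT-SOD1 110-day array, against 645 to 850 on the other 4. Gabra6, known from granule cells of the cerebellum and singled out once its level had been looked at, read 290 and 429 on these 2 arrays. Its level was 85.5 and 44.8 on the remaining disease-free arrays and 25.2 and 21.3 in G93A-SOD1 cord. Astrocyte, neuron and myelin genes were measured on every array, as the tissue label asks: Gfap, the astrocytic intermediate filament gene, read 1583 to 2206 on the disease-free arrays, and Nefm, a neurofilament gene, 900 to 1035.

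None of the 6 genes passed the test in any of the 5 comparisons made. The test was limma on log2 intensity, adjusted by the Benjamini-Hochberg method over 6737 probe sets. At 110 days 10.3% of all tested probe sets had an unadjusted p under 0.05. Of all tested probe sets 1.51% passed for G93A-SOD1 against disease-free cord, with 1.38% higher and 0.134% lower. This split of 93 higher and 9 lower became 199 and 392 with the WT-SOD1 110-day array left out, and 158 and 108 with a term for the 2 arrays with high hybridisation controls. At 75 days 0% passed, and 9.86% had an unadjusted p under 0.05. For the change of the difference with age 0.416% passed, for age in disease-free cord 0.0148%, and for WT-SOD1 against nontransgenic 0.104% (1.17% before adjustment). The median log2 difference of the 6 genes was 0.18 at 110 days and 0.07 at 75 days, against -0.02 and -0.04 over all tested probe sets. The genes differed among themselves, and Aqp4 and 1 of the 2 Glul probe sets lay farthest from 0 at 110 days.

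**Figure D1:**
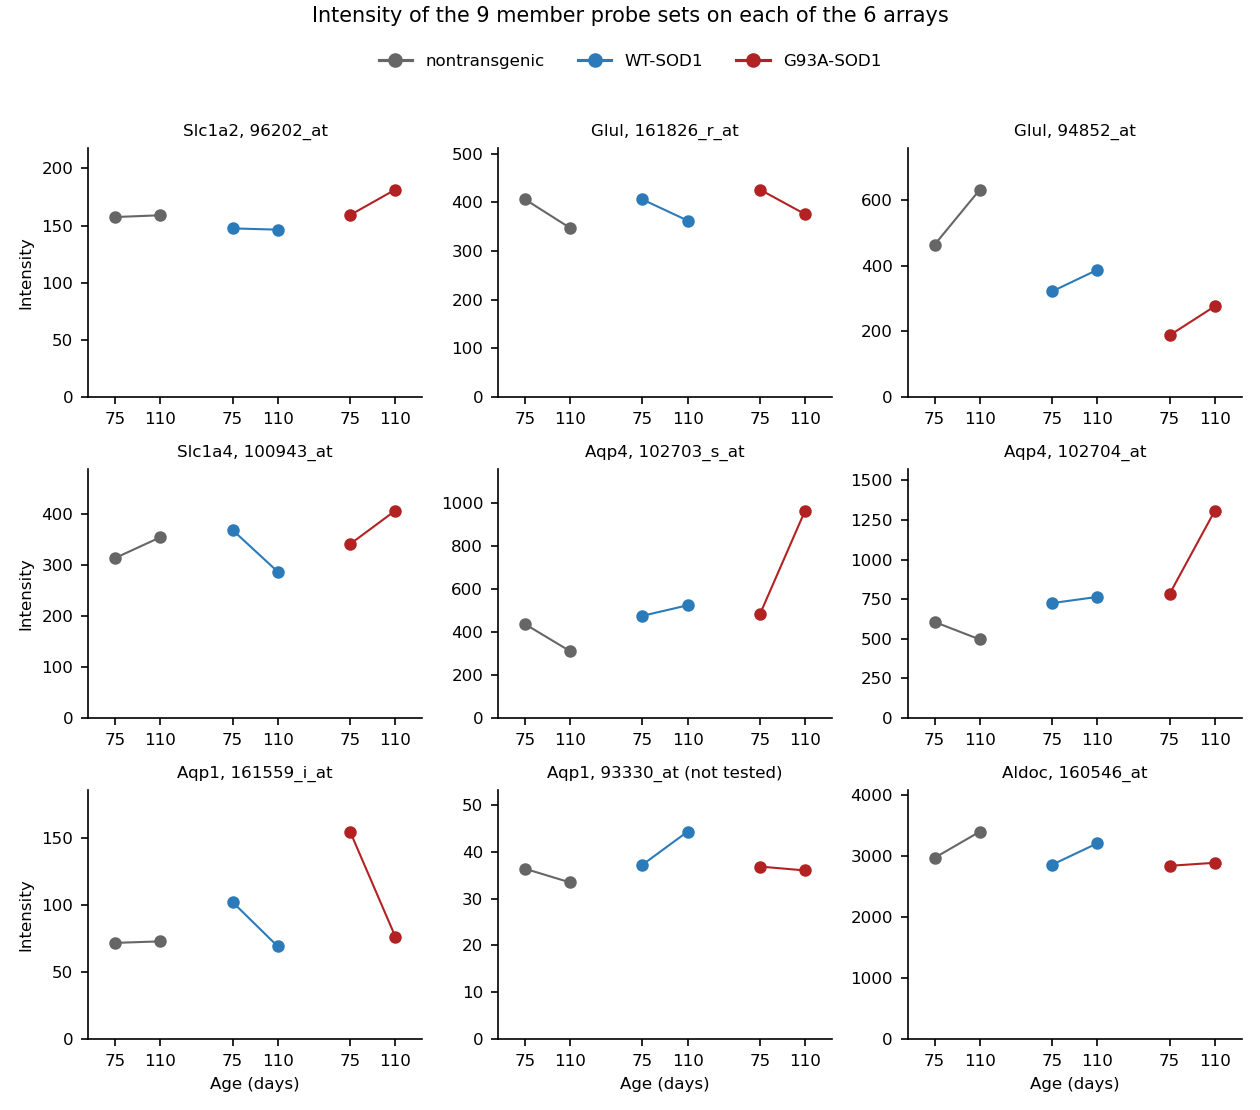
Each panel plots the intensity of 1 probe set on the 6 arrays, with age in days on the horizontal axis, colour for genotype and a line joining the 2 arrays of a genotype. Both Aqp4 panels have their highest point on the G93A-SOD1 110-day array (1309 and 963), and the Glul panels differ from each other.

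Slc1a2, the gene of the main glutamate transporter GLT-1, varied little over the 6 arrays. It read 157 and 159 on the nontransgenic arrays at 75 and 110 days, 147 and 146 in WT-SOD1 cord, and 159 and 181 in G93A-SOD1 cord. The G93A-SOD1 arrays were the highest at both ages, at 75 days by less than 1 unit above the nontransgenic 110-day array. The 4 disease-free arrays differed by 1.09-fold from lowest to highest. At 110 days the level in G93A-SOD1 cord was 1.19-fold that of disease-free cord, with a 95% interval of 0.949 to 1.49 (log2 difference 0.25 ± 0.14 SE, limma adjusted p = 0.659). At 75 days the fold was 1.04, with an interval of 0.834 to 1.31 (adjusted p = 0.912). The fold of the change between ages was 1.14 (0.827 to 1.57). These unadjusted intervals reach down to a fold of 0.834 at 75 days and 0.949 at 110 days. Their width does not include any spread among G93A-SOD1 arrays, of which there was 1 at each age. The intervals rest on 1 probe set, which read 146 to 181 against a median of 79.7 over all values. Whether this probe set would show a loss of the transcript was not tested, and protein was not measured.

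In bulk tissue, fewer astrocytes and less RNA per astrocyte cannot be told apart, and the reverse holds for a higher level. Astrocyte markers were read in the same RNA. Of 19 tested genes of an astrocyte identity list, 2 rose and 0 fell at 110 days, with a median log2 difference of 0.02. The 2 were Fabp7, a fatty acid-binding protein gene (2.74-fold, limma adjusted p = 0.0166), and Cd9, a tetraspanin gene (2.17-fold, adjusted p = 0.00869). Both calls were lost with no filter on low values (adjusted p = 0.457 and 0.152), and that of Fabp7 also with a floor at the 40th percentile (0.0655). Cd9 is also expressed by microglia and myelinating cells. Over all 22 genes of this list on the array, summed intensity was 19900 to 23686 on the disease-free arrays, 20125 on the G93A-SOD1 array at 75 days and 26305 at 110 days, and Phgdh lay at or under the intensity floor of 31 on all 6 arrays. The sum was uneven over the genes: Apoe read 5667 on the G93A-SOD1 array at 110 days against 2951 to 3642 on the disease-free arrays. Of the 19 tested genes 10 lay above 0 at 110 days, and Dio2 (log2 difference -0.70) and Gjb6 (-0.48) were among those below, neither past the threshold. The part of these markers in the values of the 6 genes was not tested.

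Glul, encoding glutamine synthetase, had 2 probe sets that disagreed. The probe set 161826_r_at, with the higher mean, read 406 and 348 on the nontransgenic arrays at 75 and 110 days, 406 and 363 in WT-SOD1 cord, and 426 and 376 in G93A-SOD1 cord. Its level thus hardly differed between genotypes, and it was lower at 110 than at 75 days in each of the 3 genotypes, by ratios of 0.855 to 0.893. Of all tested probe sets, 11.5% were lower at 110 days in all 3 genotypes. In limma the G93A-SOD1 fold was 1.06 at 110 days (0.855 to 1.31, adjusted p = 0.979) and 1.05 at 75 days (0.848 to 1.30, adjusted p = 0.889). For age in disease-free cord the log2 difference was -0.19 ± 0.11 SE (adjusted p = 0.998).

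The other Glul probe set, 94852_at, read 464 and 631 on the nontransgenic arrays at 75 and 110 days. For WT-SOD1 cord the readings were 322 and 387, and for G93A-SOD1 cord 188 and 276. At both ages nontransgenic cord was highest and G93A-SOD1 cord lowest, with WT-SOD1 cord between them, and neither G93A-SOD1 array reached the lowest disease-free array. In this order stood 6.38% of all tested probe sets, and 15.6% had both G93A-SOD1 arrays below all 4 disease-free arrays. The order was looked for after the values were seen.

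For 94852_at the log2 difference between G93A-SOD1 and disease-free cord was -1.04 ± 0.31 SE at 75 days and -0.84 ± 0.31 SE at 110 days, or folds of 0.487 (0.292 to 0.812) and 0.559 (0.335 to 0.933). By limma the unadjusted p was 0.0126 and 0.0311, and neither passed after adjustment (adjusted p = 0.475 and 0.404). Only 0.252% of all tested probe sets had as low or a lower difference at 75 days, and 0.475% at 110 days. WT-SOD1 against nontransgenic cord gave -0.62 ± 0.19 SE (unadjusted p = 0.00139, adjusted p = 0.935). Its level at 110 days was higher than at 75 days in all 3 genotypes, by ratios of 1.20 to 1.47, the opposite of the first probe set, as for 12.8% of all tested probe sets. Over the 6 arrays the log2 levels of the 2 probe sets had a Pearson r of -0.69. The suffix of 161826_r_at marks a probe set for which the usual probe selection rules were relaxed. Which of the 2 follows the Glul transcript was not tested, and the 2 cannot both be read as its level.

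Slc1a4 belongs to the same family as Slc1a2 but encodes ASCT1, a transporter of alanine, serine and cysteine. It read 313 and 354 on the nontransgenic arrays at 75 and 110 days, 368 and 287 in WT-SOD1 cord, and 341 and 406 in G93A-SOD1 cord. The G93A-SOD1 array at 110 days was the highest of the 6, while the 2 disease-free genotypes changed places between the ages. At 110 days the G93A-SOD1 fold was 1.28 (0.952 to 1.71, log2 difference 0.35 ± 0.18 SE, limma adjusted p = 0.608), and at 75 days it was 1.00 (0.748 to 1.34). Slc1a4 stood at 1.42-fold against the WT-SOD1 array of the same age and at 1.15-fold against the nontransgenic one.

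Other genes of glutamate and glutamine handling gave 1 call. Of 29 listed genes 16 were on the array and 13 were tested at 110 days, of which 0 rose and 1 fell, with a median log2 difference of -0.05. The 1 was Slc38a2, encoding SNAT2, a carrier of glutamine and other small neutral amino acids. Slc38a2 read 268 and 264 on the nontransgenic and WT-SOD1 arrays at 75 days and 465 and 397 on those at 110 days. On the G93A-SOD1 arrays it read 239 at 75 days and 240 at 110 days. The level in G93A-SOD1 cord thus stayed near that of the 75-day arrays of all genotypes, while both disease-free arrays at 110 days stood higher.

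Slc38a2 fell by 0.84 on the log2 scale at 110 days (± 0.15 SE, fold 0.558, limma adjusted p = 0.0478), and its log2 difference at 75 days was -0.15 (adjusted p = 0.769). Neither its change with age (-0.69, adjusted p = 0.563) nor the difference between ages in disease-free cord (0.69, adjusted p = 0.676) passed. The call lay close to the threshold: it was lost with a floor at the 40th percentile (adjusted p = 0.0989), with arrays scaled to 1 median (0.111), with no filter on low values (0.374) and with a filter on the mean level (0.0548). The other plasma membrane glutamate transporter genes tested were Slc1a1 and Slc1a6, of which Slc1a6 is known for cerebellar Purkinje cells. Their log2 differences at 110 days were -0.27 (adjusted p = 0.895) and -0.54 (adjusted p = 0.471). Slc1a6 read highest, 163 and 176, on the same 2 arrays as Gabra6. In the other 4 comparisons 0 of the 13 genes passed.

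Aqp4, encoding the endfoot water channel, had its highest level in symptomatic G93A-SOD1 cord on both of its probe sets. On 102704_at it read 606 and 496 on the nontransgenic arrays at 75 and 110 days, 726 and 765 in WT-SOD1 cord, and 784 and 1309 in G93A-SOD1 cord. The G93A-SOD1 110-day array lay 1.71-fold above the WT-SOD1 array and 2.64-fold above the nontransgenic array of its age. On 102703_s_at the readings were 437 and 311 for nontransgenic, 475 and 524 for WT-SOD1, and 482 and 963 for G93A-SOD1 cord. There the same array lay 1.84-fold and 3.10-fold above the others of its age. The 2 probe sets ran together over the 6 arrays (Pearson r = 0.99 of log2 level).

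Aqp4 stood at 2.13-fold in G93A-SOD1 cord at 110 days by the first probe set (1.40 to 3.22, log2 difference 1.09 ± 0.25 SE, unadjusted p = 0.00352) and at 2.39-fold by the second (1.51 to 3.77, 1.26 ± 0.28 SE, unadjusted p = 0.00267). Neither passed in limma after adjustment over all probe sets (adjusted p = 0.132 and 0.111). The array at 110 days lay above all 4 disease-free arrays on both, as it did for 16.9% of all tested probe sets, and 98.9% and 99.3% of tested probe sets had as low or a lower log2 difference. At 75 days the folds were 1.18 (0.780 to 1.79) and 1.06 (0.671 to 1.67). The change of the difference between the ages was 0.85 ± 0.36 SE and 1.18 ± 0.39 SE on the log2 scale, with adjusted p of 0.794 and 0.627.

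The size of the Aqp4 difference depended on the disease-free arrays. They differed by 1.54-fold at 110 days, between WT-SOD1 and nontransgenic cord, and by 1.20-fold at 75 days. With the nontransgenic 110-day array left out, the log2 difference of 102704_at at 110 days was 0.78, and with the WT-SOD1 110-day array left out it was 1.40. With either disease-free 75-day array left out it stayed at 1.09, since neither array enters it. In each of these fits the probe set's own spread came from the disease-free pair of the other age alone, so no p is given. With a term for WT-SOD1, which sets G93A-SOD1 against nontransgenic cord, the log2 difference at 110 days was 1.31 (limma adjusted p = 3.21e-05). That fit gave all probe sets the same SE of 0.26, so this p does not rest on the spread of Aqp4 itself. With a term for the 2 arrays with high hybridisation controls the log2 difference was 1.18 (limma adjusted p = 0.0295). That fit, too, had fewer residual degrees of freedom than the main one to measure the spread of Aqp4 itself. This p is therefore no support on its own. The change of Aqp4 with age was 1.16 without the WT-SOD1 110-day array, and 0.53 with the nontransgenic 110-day array left out in its place. The G93A-SOD1 difference at 110 days was above 0 in each of these fits.

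At both ages and on both probe sets Aqp4 was lowest in nontransgenic, higher in WT-SOD1 and highest in G93A-SOD1 cord. This order, too, was looked for after the values were seen, and 4.10% of all tested probe sets showed it. For WT-SOD1 against nontransgenic cord the log2 difference was 0.44 ± 0.19 SE on each probe set (limma unadjusted p = 0.0219 and 0.0234, adjusted p = 1 for both). The ratio of WT-SOD1 to nontransgenic was 1.20 at 75 days and 1.54 at 110 days on 102704_at, and 1.09 and 1.69 on 102703_s_at. From 75 to 110 days the level on 102704_at had a ratio of 0.818 in nontransgenic, 1.05 in WT-SOD1 and 1.67 in G93A-SOD1 cord.

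**Figure D2:**
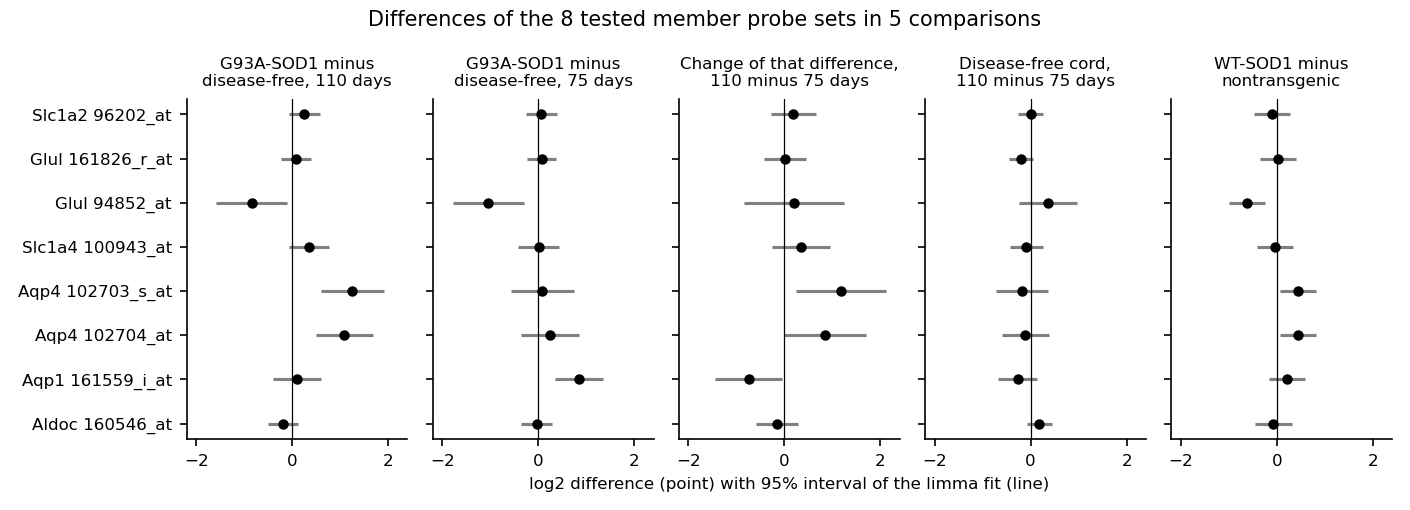
Points give the log2 difference of each of the 8 tested probe sets in 5 comparisons, and lines the 95% interval of the limma fit, before any adjustment for the number of probe sets. At 110 days the intervals of both Aqp4 probe sets (0.49 to 1.69 and 0.60 to 1.91) and of Glul 94852_at (-1.58 to -0.10) leave out 0, and at 75 days those of Aqp1 and Glul 94852_at.

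Aqp4 read highest on an array where markers of reactive glia were high as well. Of 12 tested genes of a reactive astrocyte list 9 rose and 0 fell at 110 days (median log2 difference 1.10), with Serpina3n, a secreted protease inhibitor gene, at 6.29-fold and Gfap at 2.38-fold (limma adjusted p = 0.00112 and 0.0304). The summed intensity of its 19 genes on the array was 4461 to 5506 on the disease-free arrays, 6015 on the G93A-SOD1 array at 75 days and 12696 at 110 days, with Hspb1 and Cxcl10 at or under the floor on all arrays. Of 16 tested microglial genes 15 rose and 0 fell (median 2.09), and the sum over 21 genes was 2698 to 3289, then 3076, then 11042, with Fcer1g and Ptprc at or under the floor on all arrays. Emp1 and Psmb8 of the reactive astrocyte list exceeded the pooled median of 79.7 only on the G93A-SOD1 110-day array. So did Aif1, Lyz2, Cd53 and Cst7 of the microglial list. These genes entered the test only through that array, so their part in the counts and medians is no support. Of 16 tested neuron genes 0 rose and 1 fell (Nefm, -0.82, adjusted p = 0.0301), with a median of -0.43. Their sum over 17 genes was 15263 to 17030 on the disease-free arrays, 14086 at 75 days and 12034 at 110 days in G93A-SOD1 cord, with Isl1 at or under the floor on all arrays. Of 9 tested myelin genes 0 passed (median -0.19), with a sum over 10 genes of 13067 to 14558 on the disease-free arrays and of 12305 and 12479 in G93A-SOD1 cord at 75 and 110 days. Of 8 tested genes of meninges and fibroblasts 2 rose, Igfbp2 at 3.19-fold and Fmod at 2.03-fold (median 0.14), with a sum over 13 genes of 4791 to 5354 and then of 5024 and 4864. No gene of these last lists lay at or under the floor on all arrays. With no filter on low values the calls of Serpina3n, Gfap, Nefm, Igfbp2 and Fmod were lost (limma adjusted p = 0.208, 0.515, 0.174, 0.384 and 0.261). Those of Gfap and Nefm were lost also with arrays scaled to 1 median (0.0603 and 0.0597) and with the higher floor (0.101 and 0.0594). The part of all these markers in the Aqp4 values was not tested.

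The other genes of the endfoot and of water and potassium balance had no call. Of 26 listed genes 17 were on the array and 12 were tested, and 0 rose and 0 fell at 110 days by limma (median log2 difference 0.01, with 6 of 12 above 0). Farthest from 0 were Slc4a4, a sodium bicarbonate cotransporter gene, at 0.54 (adjusted p = 0.265) and Atp1b2, a beta subunit gene of the glial sodium pump, at 0.35 (adjusted p = 0.452). Slc4a4 read 222 on the G93A-SOD1 array at 110 days against 139 to 181 on the disease-free arrays. Of the dystroglycan complex, which holds aquaporin-4 at the endfoot, Dag1 had 0.04 (adjusted p = 1.000), Dtna 0.09 (adjusted p = 0.973) and Utrn -0.16 (adjusted p = 0.963). Utrn had -0.48 at 75 days (adjusted p = 0.519). Dmd and Sntb1, of the same complex, lay at or under the floor on all arrays and could not be read. In the other 4 comparisons 0 of the 12 genes passed.

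Aqp1 encodes a water channel known from choroid plexus epithelium, red blood cells, vessels outside the nervous system and sensory neurons, and it is less tied to astrocytes than Aqp4. Its first probe set, 161559_i_at, read 71.9 and 73.0 on the nontransgenic arrays at 75 and 110 days, 102 and 69.2 in WT-SOD1 cord, and 155 and 76.5 in G93A-SOD1 cord. The transgenic 75-day arrays were thus the highest, and the other 4 lay within a narrow band. Of all tested probe sets 5.79% had the G93A-SOD1 75-day array highest and the WT-SOD1 75-day array next. This probe set entered the test only because of these 2 arrays, the only ones on which it exceeded the pooled median of 79.7.

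The G93A-SOD1 fold of Aqp1 on 161559_i_at was 1.81 at 75 days (1.28 to 2.55, log2 difference 0.85 ± 0.21 SE, limma unadjusted p = 0.00473, adjusted p = 0.460). It was 1.08 at 110 days (0.763 to 1.52, adjusted p = 0.988), and the change between ages was -0.75 ± 0.30 SE (adjusted p = 0.771). With the WT-SOD1 75-day array left out the 75-day difference was 1.11, and with the nontransgenic 75-day array left out it was 0.60. A term for WT-SOD1, in the fit with the same SE for all probe sets, gave 0.96 (adjusted p = 0.0263). The second probe set, 93330_at, read 36.4 and 33.5, 37.2 and 44.3, and 36.9 and 36.0 on the nontransgenic, WT-SOD1 and G93A-SOD1 arrays at 75 and 110 days. It lay close to the floor of 31 on all arrays and was not tested. Put in place of the first, it gave a log2 difference of 0.00 at 75 days, and the r between the 2 probe sets was -0.13.

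Markers of the tissues known for Aqp1 were read in the same RNA. For the ependyma and choroid plexus list, 0 of 5 tested genes passed at 75 days, with a median log2 difference of -0.10. Its summed intensity over 6 genes was 523 to 649 on the disease-free arrays and 539 on the G93A-SOD1 array at 75 days, within that range, with no gene at or under the floor on all arrays. For the endothelium and red cell list, 0 of 10 passed, with a median of 0.08. Its sum over 15 genes was 4889 to 6081 on the disease-free arrays, 6339 at 75 days and 4687 at 110 days in G93A-SOD1 cord, so that it was highest on the array where Aqp1 was highest, and Tek was at or under the floor on all arrays. Hba-a1, a haemoglobin gene, made up 4278 of the 6339 on the G93A-SOD1 array at 75 days, and read 2968 to 3890 on the disease-free arrays. On the same G93A-SOD1 array Flt1 (301) and Tagln (68.8) also lay above all disease-free arrays. Hbb-b2, Alas2, Cldn5, Pecam1, Vwf and Epor lay within their disease-free ranges, and Eng (272) lay below its own. For sensory ganglia and Schwann cells, 0 of 6 passed (median 0.01), with sums over 8 genes of 2235 to 2774 on the disease-free arrays and 2296 on the G93A-SOD1 array at 75 days, and with Scn10a and Scn9a at or under the floor on all arrays. The part of the endothelial and red cell markers in the Aqp1 value was not tested.

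Aldoc encodes aldolase C, the brain form of this glycolytic enzyme, found in astrocytes and in cerebellar Purkinje cells. It read 2973 and 3402 on the nontransgenic arrays at 75 and 110 days, 2860 and 3211 in WT-SOD1 cord, and 2842 and 2891 in G93A-SOD1 cord. The 6 arrays differed by 1.20-fold from lowest to highest. At each age nontransgenic cord was highest and G93A-SOD1 cord lowest, by small margins. The G93A-SOD1 fold was 0.875 at 110 days (0.704 to 1.09, limma adjusted p = 0.773) and 0.975 at 75 days (0.784 to 1.21, adjusted p = 0.948). Both disease-free genotypes were higher at 110 than at 75 days, by ratios of 1.14 and 1.12 (log2 difference 0.18 ± 0.11 SE, adjusted p = 0.998), and G93A-SOD1 cord had a ratio of 1.02.

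Markers of cerebellum were read beside Aldoc. The sum of 12 such genes was 6268 on the nontransgenic 75-day and 6773 on the WT-SOD1 110-day array, 4754 to 4876 on the remaining disease-free arrays, and 3930 and 3503 in G93A-SOD1 cord at 75 and 110 days, with Pcp4 at or under the floor on all arrays. The 3 arrays with the highest Aldoc level were also the 3 with the highest sum, in another order: Aldoc was highest on the nontransgenic 110-day array, whose sum was 4876. Of 10 tested cerebellar genes 0 passed at 110 days by limma, with a median log2 difference of -1.06. The part of these markers in the Aldoc values was not tested.

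Other genes of glycolysis and its branches had no call. Of 26 listed genes 21 were on the array and 18 were tested at 110 days, of which 5 lay above 0, with a median log2 difference of -0.18. Farthest from 0 were Slc2a1, the glucose transporter gene of vessels and glia, at -0.39 (limma adjusted p = 0.389), and Pcx, encoding pyruvate carboxylase, an enzyme of astrocytes, at -0.35 (adjusted p = 0.519). Aldoa, the gene of the widely expressed aldolase A, had -0.23 (adjusted p = 0.737), near the -0.19 of Aldoc. Its probe set carries a suffix for probes shared within a gene family. In the other 4 comparisons 0 of the 18 genes passed.

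**Figure D3:**
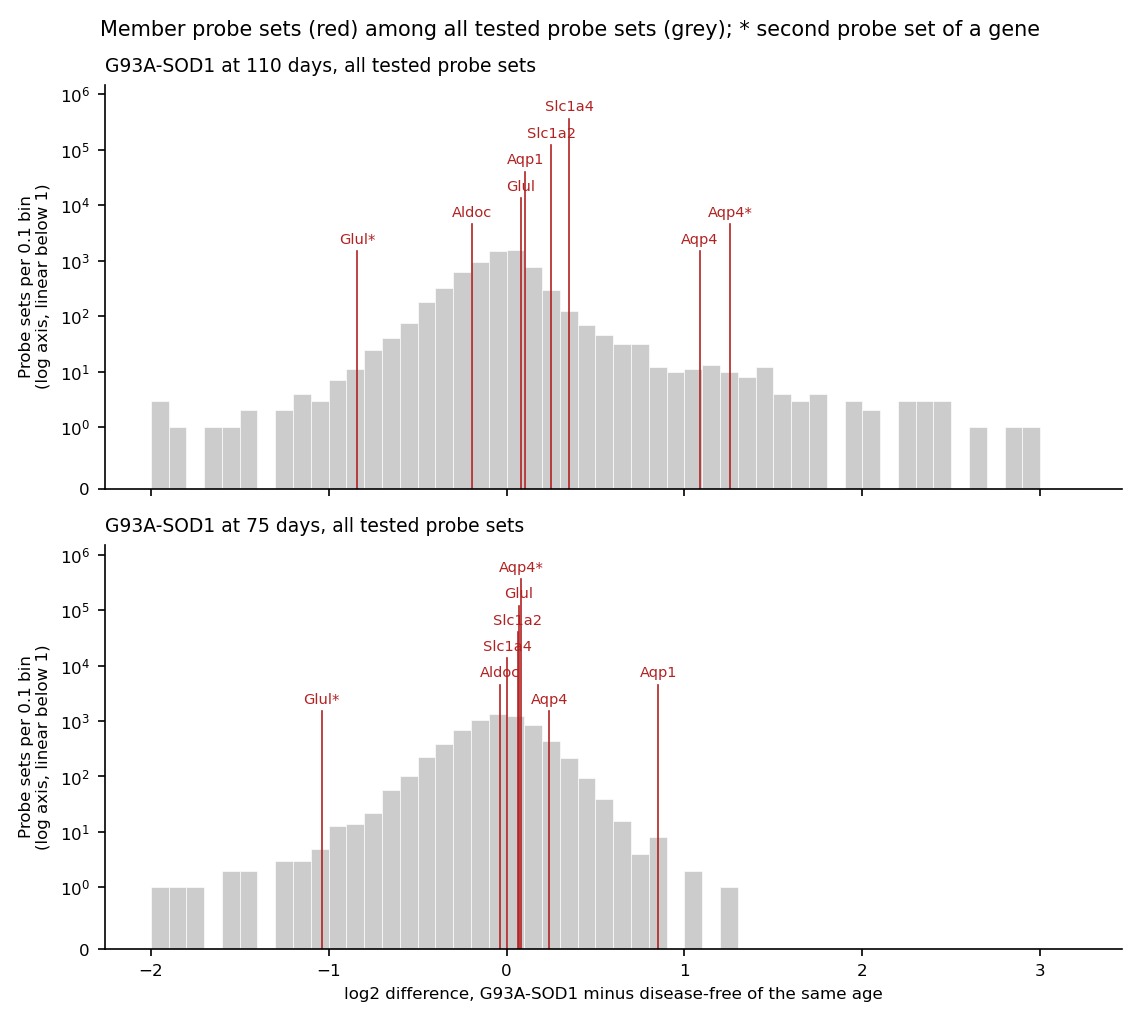
Grey bars count all 6737 tested probe sets by their log2 difference between G93A-SOD1 and disease-free cord, in bins of 0.1 and on a log axis, with values beyond the ends in the outermost bins. Red lines, whose height has no meaning, mark the 8 probe sets of the 6 genes: both Aqp4 lines stand far to the right at 110 days (1.09 and 1.26), Aqp1 does so at 75 days (0.85), and the second Glul probe set stands to the left in both panels (-0.84 and -1.04).

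The 6 genes did not share a pattern. Over the 6 arrays, and as a description of arrays that share genotype and age, the highest Pearson r between the log2 levels of any 2 of them was 0.74 for Glul (161826_r_at) and Aqp1, and the lowest -0.86 for Glul and Aldoc. Slc1a2 and Aqp4 had an r of 0.61, and Aqp4 and Aqp1 of 0.11. At 110 days 3 of the 6 (Slc1a2, Slc1a4 and Aqp4) lay above all 4 disease-free arrays and 0 below, beside 16.9% above and 27% below among all tested probe sets. At 75 days 4 of the 6 (Slc1a2, Glul, Aqp4 and Aqp1) lay above and 1 (Aldoc) below, beside 23.9% and 34.7%. These places are those of the probe set that stood for each gene. Glul 94852_at lay below all 4 disease-free arrays at both ages, and at 75 days Aqp4 102703_s_at and Aqp1 93330_at lay within them. Aqp1 161559_i_at entered the test only through the arrays on which it was high, so its place is no support.

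Of the 6 genes only Aqp4 and Aqp1 differed by 1.5-fold or more between their highest and lowest array. Likeness to them in log2 level over the 6 arrays was sought among 961 tested genes that varied 1.5-fold or more. The genes most like Aqp4 were Ccl3, a chemokine gene, with an r of 0.98, Itgax, an integrin gene of myeloid cells, with 0.98, and Tagln, a smooth muscle gene, with 0.97. Ccl3 read 97.2 on the G93A-SOD1 array at 110 days against 50.6 to 66.4 on the disease-free arrays. The genes most like Aqp1 were Lin9, with an r of 0.99, Bcl2l10, with 0.99, and Atn1, with 0.99. Lin9 read 90.3 on the G93A-SOD1 and 68.3 on the WT-SOD1 array at 75 days, and 52.5 to 56.2 on the other 4. Each r is the highest found over 6 arrays among many candidates and serves as a description. Ccl3 and Tagln exceeded the pooled median of 79.7 only on the G93A-SOD1 110-day array, and Lin9 only on the G93A-SOD1 75-day array. Atn1 exceeded it only on the transgenic 75-day arrays. These genes thus entered the test only through arrays on which Aqp4 or Aqp1 was high, so their likeness is no support.

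**Figure D4:**
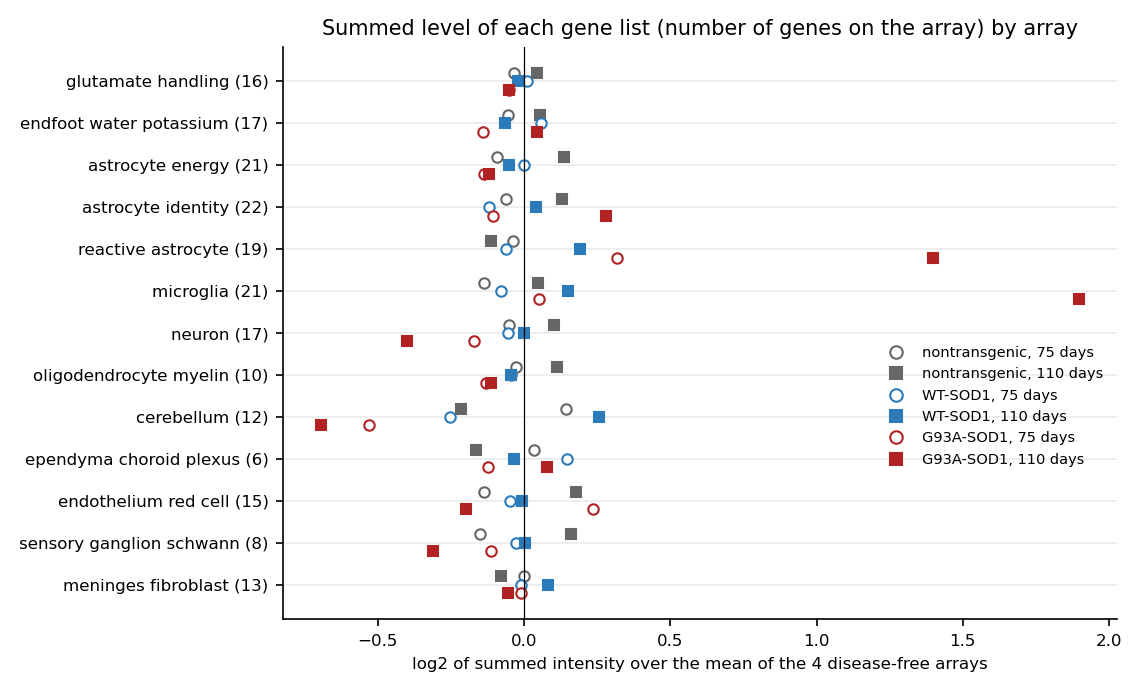
Each point is the summed intensity of a gene list on 1 array, as log2 of its ratio to the mean of the 4 disease-free arrays, with open circles for 75 days, squares for 110 days and colour for genotype. The G93A-SOD1 110-day array stands far to the right for reactive astrocyte and microglial genes (2.63 and 3.72 times the disease-free mean), while the lists for glutamate handling, endfoot and energy metabolism stay close to 0.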

How the data were processed

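The deposited table holds linear intensities, with a column for each array. The authors' probe summary and scaling are not given in the sources used here. Of 12488 rows, 66 Affymetrix control probe sets were left out of the tests. Of the remaining 12422, 10833 had 1 symbol in the platform annotation, 396 several and 1193 none, and 10817 of the first matched RefSeq by Entrez identifier, with 0 symbols changed. Intensities under the 25th percentile (31) were set to that value before taking log2. Tests covered the 6737 probe sets with an intensity above 79.7, the median of all values, on 1 or more arrays.

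limma 3.58.1 in R 4.3.3 (lmFit, eBayes, Benjamini-Hochberg at 0.05) fitted 4 means: disease-free at each age, and G93A-SOD1 at each age, each a lone array assumed to vary like the disease-free ones. This left 2 residual degrees of freedom (prior 5.13). P-values thus measure the spread between nontransgenic and WT-SOD1 arrays of an age, which includes any true difference between those genotypes. A probe set's own spread was drawn toward a spread pooled over all probe sets. With a prior of 5.13 against 2 degrees of freedom, the pooled spread had the larger weight. WT-SOD1 against nontransgenic used those 4 arrays alone and a term for age, with 1 residual degree of freedom and 1 spread for all probe sets. The G93A-SOD1 comparisons and their change with age share the disease-free arrays. Folds are back-transformed log2 differences, and intervals are 95% intervals of the fit. The fits were also run on simulated arrays, drawn with the same spread for every array of a probe set. This could not test whether a G93A-SOD1 array varies like the disease-free ones.

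The genes and lists were chosen with earlier results of these data known. Text names all probe sets of the 6 genes; from each list of glutamate, endfoot and energy genes and of cell type markers, the calls with the smallest p or the 2 genes farthest from 0; and the 3 genes most like each gene that varied 1.5-fold. Gabra6, Gfap, Hba-a1, Aldoa, Dag1, Dtna, Utrn, Slc1a1 and Slc1a6 were named after their values were seen. So were Apoe, Dio2, Gjb6, the genes named beside Hba-a1, and Emp1, Psmb8, Aif1, Lyz2, Cd53 and Cst7. Alternatives were the floor, scaling, filter, choice of probe set, each disease-free array left out, and terms for WT-SOD1 and for high hybridisation controls.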

Additional observations from a re-analysis of the deposited data

How the results depend on the processing

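Of the 6 genes, 0 passed in the main analysis of any comparison. At 110 days 1 passed, always Aqp4, with a WT-SOD1 term, with a spike-in term and with each disease-free array left out (1 to 1), and 0 in the other 7 alternatives. At 75 days 1 passed, Aqp1, with a WT-SOD1 term, and 0 to 1 with arrays left out. For the change with age it was 0 to 1 with arrays left out, and in the remaining 2 comparisons 0 throughout. Probe sets passing at 110 days numbered 102, but 66 with the floor at the 40th percentile, 42 with no filter, 266 with the spike-in term and 148 to 591 with arrays left out. At 75 days 0 became 50 with no filter, 54 with a WT-SOD1 term, 1 with the spike-in term and 13 to 116 with arrays left out. For the change with age 28 became 2 with arrays scaled to 1 median, 3 with the higher floor, 16 when filtered by mean level, 76 with no filter, 70 and 90 with the 2 terms, and 51 to 135 with arrays left out. For age 1 became 0 with no filter, 15 and 6 with the terms and 2 to 17 with arrays left out. For WT-SOD1 7 became 0 with the higher floor, with scaling or with no filter. With an array left out, a probe set's own spread came from the disease-free pair of the other age alone, so a pass there is no support. The 2 terms also left fewer residual degrees of freedom for a probe set's own spread, so a pass with them is no support on its own. Apart from fewer samples or more probe sets tested, the cause was not tested.

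Values that changed sign, none of them past the threshold, were as follows, and the cause was not tested. Averaging the probe sets of Glul gave -0.38 at 110 days, -0.48 at 75 days, 0.081 for age, and -0.29 between WT-SOD1 and nontransgenic cord. The second Glul probe set, an alternative chosen after seeing the data, gave -0.84, -1.04, 0.36 and -0.62. The change of Glul with age was -0.019 with scaled arrays and -0.060 with quantile normalization, and -0.018 to 0.043 with arrays left out. Aqp1 at 110 days was -0.040 with the spike-in term and -0.10 on its second probe set, which gave 0.065 for age. Aldoc at 75 days was 0.034 and Slc1a2 for age -0.0028 with quantile normalization. Slc1a4 at 75 days was -0.014 with a WT-SOD1 term and -0.13 with the spike-in term, and -0.11 to 0.12 with arrays left out. For age, arrays left out gave -0.058 to 0.061 for Slc1a2, -0.42 to 0.21 for Aqp4 and -0.25 to 0.060 for Slc1a4. Leaving out an array leaves no residual degree of freedom for WT-SOD1, so this was not run. No paired analysis was possible because each genotype and age had 1 array and the labels carry no replicate numbers. Signal close to the floor limits Aqp1.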
